A study of Mus musculus with 16 samples.

Results

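The 9 genes Atp6v0e2, Ear10, Prss41, Ttll11, Baiap3, Kcnip3, Ncs1, Fgf3 and Eps8l1 are protein-coding genes chosen by their normalized counts, for the width of the gap between Tet2-deficient and wild-type (WT) bone marrow cells. They are 9 of the 6288 genes in the table used here. All 9 were found by symbol, and all 9 passed the filter on low values, which asks for 4 or more libraries with a normalized count of 10 or more. Kcnip3 and Ncs1 reached that level in every library, and the other 7 passed through the genotype in which they are high. Because the genotype gap chose them, their genotype differences are given below as a description, with no test.

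Bulk RNA sequencing was done on mouse bone marrow enriched for lineage-negative, Kit-positive, Sca1-positive (LSK) cells, the fraction that holds blood stem cells and multipotent progenitors. The labels name the cells as CD45 positive. Marrow was taken inside a chamber at 3% oxygen. The 4 groups of 4 replicates were Tet2-deficient (Tet2-/-) cells kept in the chamber (physioxia), Tet2-deficient cells moved to ambient air, WT C57Bl/6J cells kept in the chamber, and WT C57Bl/6J cells moved to ambient air. Air was about 21% oxygen and lasted 6 hours, all mice were 3 to 4 months old, and both sexes were used. Neither a cross between the 2 colonies nor a shared litter is given in the labels, so what else differs between the genotypes cannot be told apart from Tet2 loss. The table is not a neutral sample of genes: for 97.87% of the 6110 genes tested, 1 or more of the 4 comparisons between groups gave a DESeq2 p under 0.05 before adjustment. Libraries held 7.77 to 15.7 M reads in the table. Tet2 itself averaged 482 ± 35.9 in Tet2-deficient physioxia and 554 ± 54.1 in Tet2-deficient air, against 731 ± 97.4 in WT physioxia and 855 ± 157 in WT air (normalized counts, SD, n = 4 each), so its transcript was still counted in Tet2-deficient libraries; gene counts do not show whether reads cover the deleted part. Of 8 LSK markers, 4 (Hlf, Kit, Slamf1 and Procr) were in the table, and all 4 were detected in every group. All 4 were higher in Tet2-deficient cells in both oxygen conditions (limma, adjusted p under 0.05). Kit was at 6490 ± 810.2 in Tet2-deficient and 3234 ± 824 in WT physioxia (SD, n = 4 each). The other LSK markers and the leukocyte marker Ptprc were not in the table used here, so their levels could not be checked.

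Tet2 encodes an enzyme that oxidizes 5-methylcytosine in DNA, a step toward loss of methylation, and its mutation is frequent in clonal blood disorders. The 9 genes do not form a pathway. Atp6v0e2 encodes a subunit of the membrane part of the V-ATPase, the proton pump that acidifies organelles. Ear10 encodes an eosinophil-associated ribonuclease of the RNase A superfamily, Prss41 a trypsin-like serine protease, and Ttll11 an enzyme that adds glutamate chains to tubulin. Baiap3 encodes a Munc13-family protein of vesicle release. Kcnip3 and Ncs1 encode calcium sensors of the neuronal calcium sensor family, of which Kcnip3 binds potassium channels and can repress transcription. Fgf3 encodes a secreted fibroblast growth factor known from embryonic development, and Eps8l1 a relative of the actin regulator Eps8.

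Since Tet2 acts on methylated CG dinucleotides, the CG sites upstream of the members are shown for 4 genes whose window lay outside their own gene body. RefSeq promoters (build GRCm38.p6) matched 8 of the 9 members, with 12 start sites; Ttll11 had no match. The 250 bases before each start run 5′ to 3′ on the gene's strand, with CG in capitals, for Atp6v0e2 (chr6:48537319-48537568, plus strand), Ear10 (chr14:43923597-43923846, minus strand), Baiap3 (chr17:25256365-25256614, minus strand) and Kcnip3 (chr2:127522095-127522344, minus strand).
Atp6v0e2: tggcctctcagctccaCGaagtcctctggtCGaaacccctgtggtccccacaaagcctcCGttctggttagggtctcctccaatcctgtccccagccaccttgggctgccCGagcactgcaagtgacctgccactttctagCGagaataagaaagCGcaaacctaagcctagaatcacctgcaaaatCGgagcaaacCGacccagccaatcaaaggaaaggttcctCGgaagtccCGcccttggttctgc
Ear10: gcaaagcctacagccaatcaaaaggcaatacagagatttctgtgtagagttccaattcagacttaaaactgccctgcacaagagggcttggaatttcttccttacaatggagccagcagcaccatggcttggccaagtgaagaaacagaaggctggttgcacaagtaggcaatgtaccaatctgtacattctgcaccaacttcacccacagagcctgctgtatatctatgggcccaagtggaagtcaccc
Baiap3: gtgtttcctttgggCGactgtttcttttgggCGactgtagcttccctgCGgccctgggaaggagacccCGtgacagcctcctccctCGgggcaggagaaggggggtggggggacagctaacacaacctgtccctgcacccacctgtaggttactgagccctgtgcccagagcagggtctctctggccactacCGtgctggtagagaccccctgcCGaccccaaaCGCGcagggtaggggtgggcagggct
Kcnip3: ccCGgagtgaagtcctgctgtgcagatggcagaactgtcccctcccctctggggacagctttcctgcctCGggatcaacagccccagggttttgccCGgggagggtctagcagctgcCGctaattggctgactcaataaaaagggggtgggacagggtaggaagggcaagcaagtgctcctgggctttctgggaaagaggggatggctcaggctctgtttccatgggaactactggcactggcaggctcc

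These stretches held 10 CG sites for Atp6v0e2, 0 for Ear10, 9 for Baiap3 and 4 for Kcnip3. The median over promoters of genes in the table was 14 (quartiles 6 and 22), and over all RefSeq promoters 6 (quartiles 2 and 16). Ear10 and Atp6v0e2, both high in Tet2-deficient cells, thus stood far apart in CG sites, and so did Kcnip3 and Ncs1, both high in WT cells, since Ncs1 had 34. Kcnip3 also had other starts with 23 and 2 CG sites. Motifs were searched on both strands in the full 300-base windows, 250 bases before the start and 50 after. The core of the hypoxia response element, ACGTG, was in 2 of the 12 windows, both of Eps8l1, and in 24.8% of the promoters of genes in the table. The E-box CACGTG, which holds ACGTG, was in 0 of 12 and in 9.36% of those promoters. The GATA-type motif AGATAA was in 3 of 12, of Eps8l1, Fgf3 and Kcnip3, and in 7.57%. The PU.1-type motif GAGGAAGT was in 0 of 12 and in 3.17%. No methylation or factor binding was measured, so these letters only describe the windows.

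Values below are normalized counts, the authors' read counts divided by a size factor per library, in replicate order 1 to 4. The 8 Tet2-deficient and 8 WT libraries did not overlap for any of the 9 genes. The same was true of 35.7% of all tested genes, and nothing is read from the count, because the gap chose these genes. In bulk samples, fewer cells of a type that expresses a gene and less RNA per cell cannot be told apart.

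Atp6v0e2, Ear10, Prss41 and Ttll11 were high in Tet2-deficient cells. Atp6v0e2 (chr6:48537615-48541801, plus strand, GRCm38 with GENCODE M21, as for all gene positions here) had 280.0, 173, 239 and 293 in Tet2-deficient physioxia and 322, 378, 253 and 218 in Tet2-deficient air, against 0, 0, 2.92 and 0.854 in WT physioxia and 0, 2.01, 0 and 0 in WT air. It was close to an on and off pattern: 5 of the 8 WT libraries had no read. All 8 Tet2-deficient libraries together held 2254 reads of Atp6v0e2 and all 8 WT libraries 6, a depth-scaled ratio of 371 (95% counting interval 170.1 to 1011). Without WT physioxia replicate 3, which held 3 of those 6 reads, the ratio was 648 (221 to 3143). Intervals of this kind cover counting error only. Part of its transcript, stretches of 190 to 202 bases, was 93.1% to 95.3% identical to at least 12 other genes, among which Ythdc1 was in the table, so reads from there could be shared with them.

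Ear10 (chr14:43922720-43923559, minus strand) had 170.1, 192, 212 and 138 in Tet2-deficient physioxia and 152, 116, 153 and 235 in Tet2-deficient air, against 0, 0.922, 1.95 and 2.56 in WT physioxia and 1.92, 1.01, 2.20 and 1.91 in WT air. Every Tet2-deficient library held over 100 and no WT library reached 3. Summed reads were 1389 in Tet2-deficient and 13 in WT libraries, a ratio of 105 (61.5 to 199). The assignment of these reads to Ear10 is uncertain, because the pseudogene Ear-ps2 was 98.3% identical over 466 bases, Ear2 94.5% and Ear1 92.8% over all 678 bases of the transcript. The direction of Ear10 was also opposite to that of listed markers of eosinophils, the cells its family is named for. In the table were 7 of 9 listed eosinophil markers (Il5ra, Siglecf, Epx, Ear6, Prg3, Prg2 and Ear1), and all 7 were lower in Tet2-deficient cells in both oxygen conditions (limma, adjusted p under 0.05). Their summed level was 117027 to 185177 in Tet2-deficient physioxia and 90985 to 173440 in Tet2-deficient air, against 353892 to 602419 in WT physioxia and 435561 to 478065 in WT air.

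Prss41 (chr17:23836785-23844172, minus strand) had 156, 132, 133 and 226 in Tet2-deficient physioxia and 185, 206, 133 and 119 in Tet2-deficient air, against 0, 7.38, 0.973 and 12.8 in WT physioxia and 0, 4.02, 6.61 and 0.957 in WT air. Its WT level was uneven, with 2 libraries at 0 and a highest of 12.8. Summed reads were 1351 in Tet2-deficient and 35 in WT libraries, a ratio of 38.1 (27.3 to 54.9). The Prss41 locus overlaps Prss32 on the opposite strand, and whether the authors' counting used strand is not given in the sources used here.

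Ttll11 (chr2:35751241-35979913, minus strand) had 133, 125, 88.3 and 144 in Tet2-deficient physioxia and 146, 131, 63.0 and 136 in Tet2-deficient air, against 4.72, 3.69, 2.92 and 2.56 in WT physioxia and 4.81, 2.01, 2.20 and 0 in WT air. A low but counted level remained in 7 of the 8 WT libraries. Summed reads were 1014 in Tet2-deficient and 23 in WT libraries, a ratio of 43.5 (28.8 to 69.0). In both oxygen conditions replicate 3 was the lowest Tet2-deficient library for Ttll11. The Ttll11 locus overlaps annotated genes on the same and on the opposite strand, none of them in the table.

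Baiap3, Kcnip3, Ncs1, Fgf3 and Eps8l1 were low in Tet2-deficient cells. Baiap3 (chr17:25242659-25256364, minus strand) had 0, 0, 0 and 3.44 in Tet2-deficient physioxia and 0, 0, 0 and 0.846 in Tet2-deficient air, against 230.1, 83.0, 191 and 277 in WT physioxia and 206, 220.4, 198 and 240.1 in WT air. No read was found in 6 of the 8 Tet2-deficient libraries. Summed reads were 5 in Tet2-deficient and 1669 in WT libraries, a WT over Tet2-deficient ratio of 338 (145 to 1043). That ratio rests on 1 library: 4 of the 5 reads were in Tet2-deficient physioxia replicate 4, and without it the ratio was 1452 (260.2 to 57379), from 1 read. Baiap3 shares 140 transcript bases with Tsr3, which overlaps its 3′ end on the opposite strand and averaged 952 in Tet2-deficient and 1277 in WT libraries.

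The pair of calcium sensors kept the most reads in the lower genotype. Kcnip3 (chr2:127456498-127522094, minus strand) had 55.5, 44.3, 48.9 and 49.9 in Tet2-deficient physioxia and 56.5, 48.6, 25 and 96.5 in Tet2-deficient air, against 1005, 1149, 1195 and 1438 in WT physioxia and 1340, 1455, 1071 and 1469 in WT air. Ncs1 (chr2:31245823-31295989, plus strand) had 67.3, 36.7, 20.4 and 78.2 in Tet2-deficient physioxia and 40.9, 86.0, 12.0 and 20.3 in Tet2-deficient air, against 427, 693, 679 and 722 in WT physioxia and 591, 609, 850.1 and 821 in WT air. Every Tet2-deficient library therefore kept a clear level of these genes, and the label of near absence does not describe them. The WT over Tet2-deficient ratio was 23.5 for Kcnip3 (21.4 to 25.9, from 446 Tet2-deficient and 10360 WT reads) and 14.6 for Ncs1 (13.2 to 16.2, from 382 and 5507). For the other 7 genes, the highest library of the lower genotype lay between 2.56 and 12.8. The Kcnip3 locus overlaps a noncoding RNA gene on the same strand, which is not in the table.

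Fgf3 (chr7:144838083-144844436, plus strand) had 1.18, 3.24, 0 and 5.16 in Tet2-deficient physioxia and 0.818, 5.21, 2.00 and 2.54 in Tet2-deficient air, against 404, 451, 384 and 256 in WT physioxia and 286, 160.0, 287 and 119.6 in WT air. Eps8l1 (chr7:4460674-4480487, plus strand) had 7.09, 1.08, 2.72 and 3.44 in Tet2-deficient physioxia and 1.64, 1.74, 4.00 and 0 in Tet2-deficient air, against 152, 145, 96.3 and 131 in WT physioxia and 181, 103, 149.8 and 144 in WT air. Both genes kept a few reads in 7 of the 8 Tet2-deficient libraries. The WT over Tet2-deficient ratio was 109 for Fgf3 (71.9 to 174, from 22 Tet2-deficient and 2369 WT reads) and 53.8 for Eps8l1 (35.0 to 87.3, from 21 and 1115). A noncoding antisense gene overlaps Eps8l1.

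**Figure D1:**
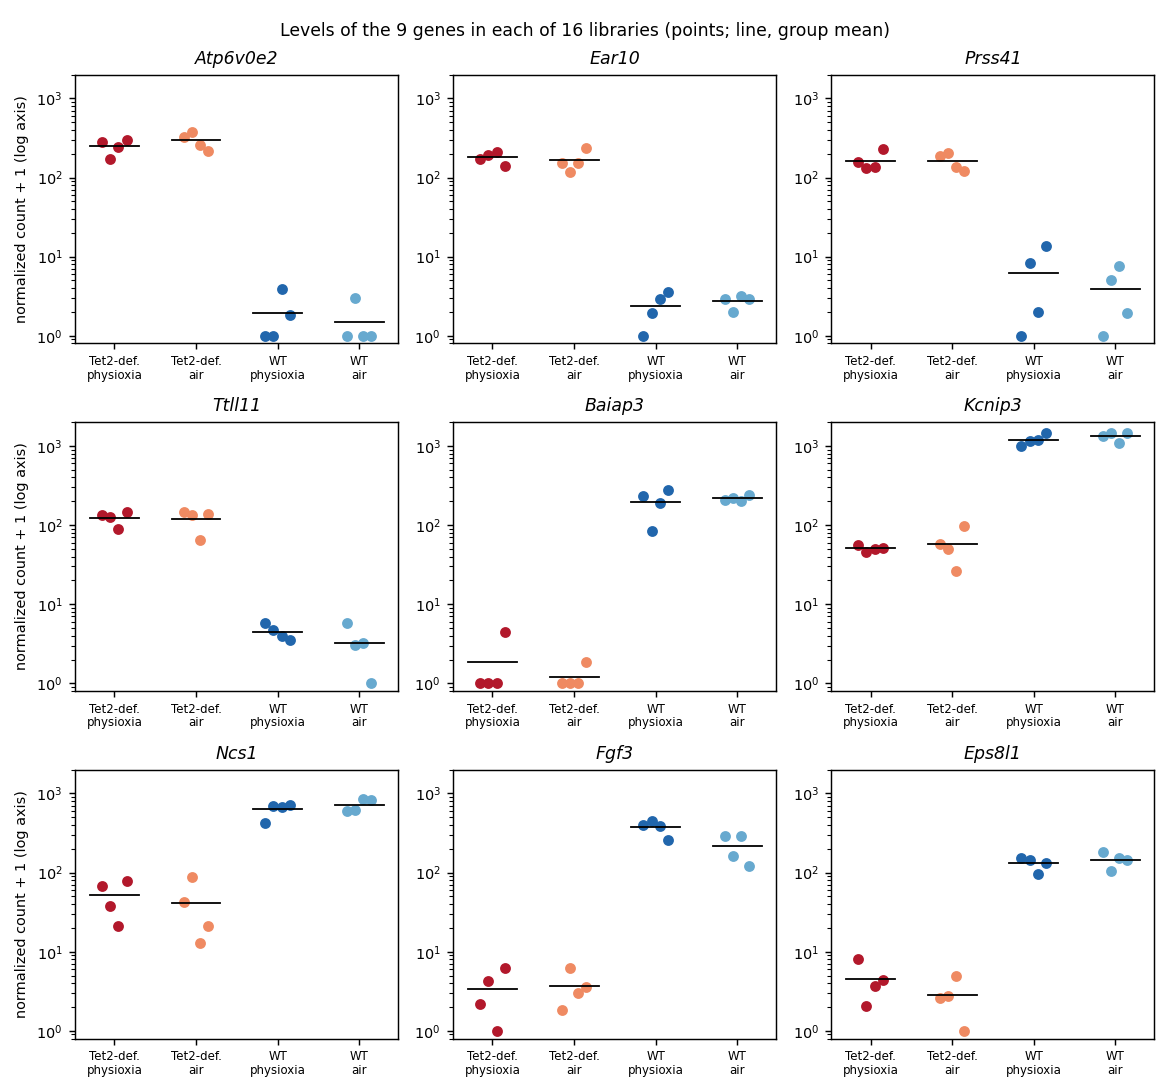
Normalized count plus 1, on a log axis, of each of the 9 genes in all 16 libraries, by group; points are libraries and lines group means. Kcnip3 and Ncs1 are the only genes of the 9 whose points in the lower genotype all lie at 12.0 or above; for the others the highest such point is between 2.56 and 12.8.

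Levels can be compared between genes only per length. Per kb of exon, the mean normalized count in the higher genotype was 357 for Kcnip3, 252 for Ear10, 145 for Ncs1, 126 for Fgf3, 113 for Atp6v0e2, 61.0 for Prss41, 40.2 for Baiap3, 30.0 for Ttll11 and 22.8 for Eps8l1. The order therefore did not follow direction: a WT-high gene, Kcnip3, led it and another, Eps8l1, ended it. No test was made of the neighbours in this order.

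The gap between the genotypes was measured as the log2 (normalized count + 1) of the lowest library of the higher genotype minus that of the highest library of the lower genotype. It was 5.47 for Atp6v0e2, 5.04 for Ear10, 4.28 for Fgf3, 4.24 for Baiap3, 3.59 for Eps8l1, 3.46 for Ttll11, 3.37 for Kcnip3, 3.11 for Prss41 and 2.30 for Ncs1. The members ranked 2, 3, 6, 8, 12, 13, 14, 18 and 34 among the table's protein-coding genes by this measure. They are thus not the 9 widest: Gbp2b, an interferon-induced GTPase, ranked 1 with 7.08 and is no member. Just inside the limit set by Ncs1 was Ncs1 itself at 2.30, and the next genes were Gm19935 and Hist1h4m, each at 2.18. In all, 40 protein-coding genes had a gap over 2, with 21 higher in Tet2-deficient and 19 higher in WT cells. Chromosome 2 held 9 of these 40 (22.5%), among them Ttll11, Kcnip3 and Ncs1, and 7.81% of the table's protein-coding genes. Chromosome 3, which carries Tet2, held 1 of the 40 (2.5%) and 4.35% of the table's protein-coding genes. That 1 gene was Gbp2b, which had the widest gap of all, and no member lies on this chromosome.

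**Figure D2:**
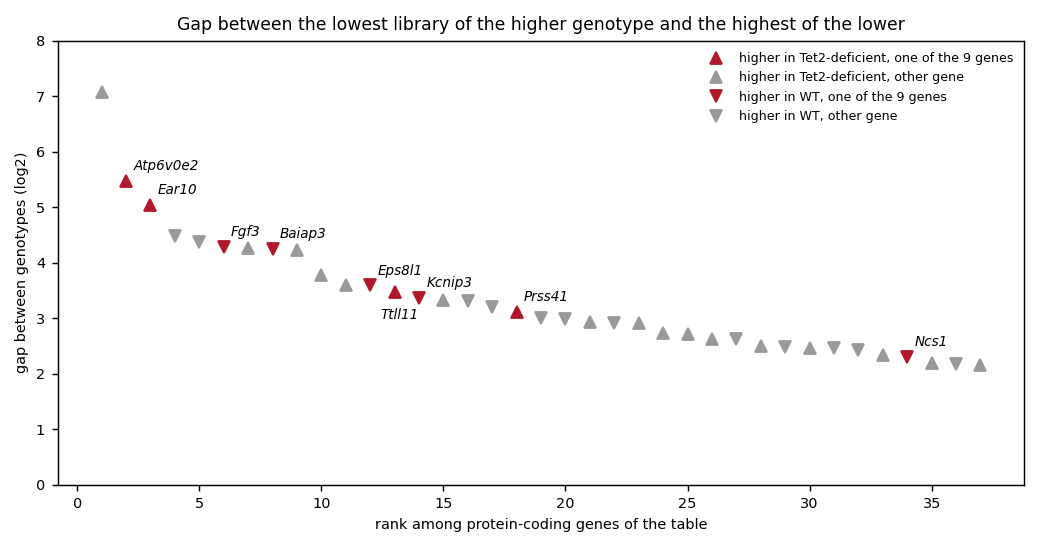
Gap between the genotypes on the log2 scale against rank, for the 37 highest-ranked protein-coding genes, with the 9 members in red and named, and with triangles that point up for genes higher in Tet2-deficient cells. The members run from rank 2 at 5.47 to rank 34 at 2.30, with other genes between them.

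Oxygen was not used to choose the genes, so physioxia against air was tested within the genotype in which each gene is high. By limma with Benjamini-Hochberg adjustment over 6110 genes, 0 of the 9 changed with oxygen, and 0 of 9 had an unadjusted p under 0.05. Over all tested genes the share called was 0% in Tet2-deficient cells, where 280 genes had an unadjusted p under 0.05, and 5.76% in WT cells. Calls by edgeR and DESeq2 on whole reads were also 0 of 9, beside 0 (edgeR) and 8 (DESeq2) of all tested genes in Tet2-deficient cells, and 334 (edgeR) and 548 (DESeq2) in WT cells. The limma fit above did not pair libraries. With the replicate number as a block, 0 of 9 were called by limma, beside 462 of all tested genes in WT cells and 0 in Tet2-deficient cells. P-values here measure the spread between the labelled replicates. Whether each came from a separate mouse is not stated beyond the words matched biological replicates.

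Fgf3 had the smallest p of the 9. It averaged 374 ± 83.3 in WT physioxia and 213 ± 86.5 in WT air (SD, n = 4 each). The log2 difference was 0.87 ± 0.51 (SE), with a 95% interval from -0.20 to 1.95, unadjusted p = 0.105 and adjusted p = 0.364 by limma. The physioxia and air libraries of Fgf3 overlapped, since the lowest physioxia library (256) lay under 2 air libraries (286 and 287). Within each of the 4 same-numbered WT pairs, however, the physioxia library was the higher, and a fit with the replicate number as a block gave an adjusted p of 0.236 by limma.

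The other 8 log2 differences between physioxia and air lay between -0.27 (Baiap3) and 0.14 (Ear10). Among the WT-high genes, the difference was -0.27 ± 0.48 for Baiap3, -0.16 ± 0.28 for Kcnip3, -0.20 ± 0.49 for Ncs1 and -0.13 ± 0.46 for Eps8l1 (SE). The 4 Tet2-deficient-high genes had -0.25 ± 0.46 (Atp6v0e2), 0.14 ± 0.37 (Ear10), 0.01 ± 0.72 (Prss41) and 0.09 ± 0.44 (Ttll11). These intervals are wide: for Kcnip3, the narrowest, they allow a fold of 0.595 to 1.35, and for Prss41 of 0.349 to 2.91. Physioxia and air libraries overlapped in 9 of 9 genes, where 11% of all tested genes did not overlap in WT cells and 3.75% in Tet2-deficient cells.

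**Figure D3:**
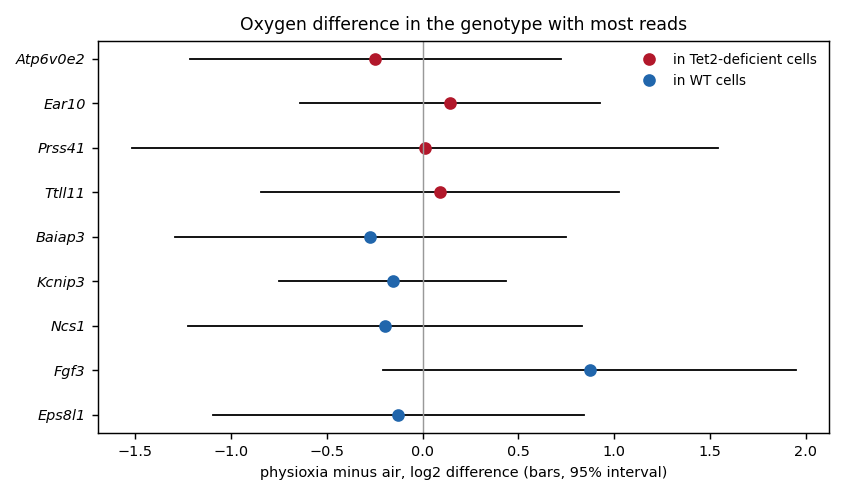
Log2 difference, physioxia minus air, of each of the 9 genes in the genotype where it is high, with its 95% interval from limma. All 9 intervals include 0, and Fgf3 has the highest value at 0.87.

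The 9 genes lie on chromosomes 2, 6, 7, 14 and 17. Prss41 and Baiap3 lie 1.40 Mb apart on chromosome 17, and Ttll11 and Ncs1 4.46 Mb apart on chromosome 2, and each pair holds genes of opposite direction. The other pairs that share a chromosome lie at least 91.5 Mb apart. Of the genes within 1 Mb of a member, 127 were tested. In physioxia 97 of them (76.4%) differed between genotypes by limma, 48 higher and 49 lower in Tet2-deficient cells, beside 69.4% of all tested genes. In air it was 98 (77.2%), 49 higher and 49 lower, beside 79.5% of all. Their median log2 difference, Tet2-deficient minus WT, was -0.09 in physioxia and 0.11 in air, and that of all tested genes 0.06 and 0.24.

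Next to the members, directions were mixed. Below Atp6v0e2, the processed pseudogene Gm7887 at 12.5 kb was higher in Tet2-deficient cells by 3.49 in physioxia and 3.94 in air on the log2 scale. Zfp862-ps at 2.78 kb was higher by 1.30 and 1.34 (limma, adjusted p at most 0.000148 for both genes). Above Atp6v0e2, Lrrc61 at 13.0 kb was higher too, by 0.62 and 0.60 (limma, adjusted p at most 0.0181). Around Ear10, the pseudogene Ear-ps2 was higher by 7.48 in physioxia and 6.78 in air, while Ear1, the nearest other ribonuclease gene of the table, was lower, at -1.57 and -1.74, and Gm8113 was at -2.45 and -2.87 (limma, adjusted p at most 4.37e-05). Ear-ps2 also has the highest percent identity to Ear10 and had the same direction. Ear-ps9, a pseudogene 47.2 kb below Ear10 and 93.8% identical to it over 465 bases, had the opposite direction. It was lower, at -1.81 in physioxia and -1.91 in air (limma, adjusted p at most 0.0021). Beside Baiap3, the basophil protease gene Prss34 was lower as well, at -3.23 in physioxia and -3.14 in air, whereas Tsr3, which overlaps Baiap3, was at -0.52 and -0.31 (limma, adjusted p at most 0.0362). Around Ttll11, the pseudogene Gm13443 was higher, by 3.41 in physioxia and 3.47 in air, and Rbm18 was lower, at -0.58 and -0.60. Around Eps8l1, Rdh13 was higher, by 0.35 and 0.37, and Ppp1r12c was lower, at -0.33 and -0.63 (limma, adjusted p at most 0.0303 for these 4 genes). Fadd, the nearest gene in the table to Fgf3 at 256 kb, did not pass the test, with 0.19 in physioxia and 0.30 in air. Kctd5 above Prss41 passed the test in air, at 0.89, and not in physioxia, at -0.23 (limma, adjusted p = 0.00233 in air and 0.341 in physioxia); the difference between the conditions was not tested.

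**Figure D4:**
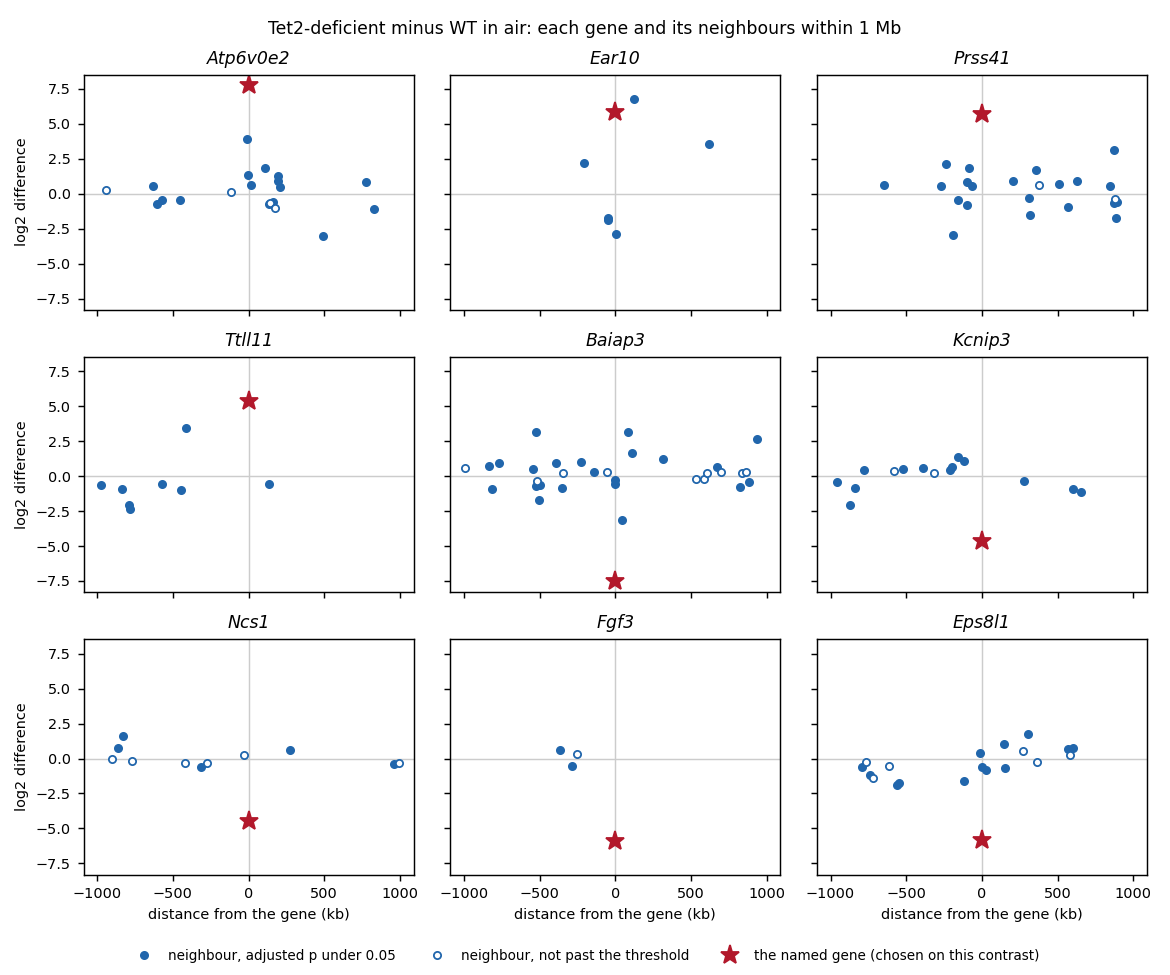
Log2 difference between genotypes in air, Tet2-deficient minus WT, of the 127 tested genes within 1 Mb of a member, by distance to it, with each member as a star. Neighbours lie on both sides of 0 around each member with several neighbours, from -3.14 (Prss34) to 6.78 (Ear-ps2).

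Relatives of the members, from lists of their families and partners, were tested for genotype in the same fit. In physioxia 32 of 39 tested relatives (82.1%) differed between genotypes, 12 higher and 20 lower in Tet2-deficient cells; in air it was 30 (76.9%), 9 higher and 21 lower. Over all tested genes, 69.4% differed in physioxia, with 35.9% higher and 33.6% lower. In air it was 79.5%, with 42.1% higher and 37.4% lower. The relatives' median log2 difference was -0.43 in physioxia and -0.38 in air, and that of all tested genes 0.06 and 0.24. The lists are incomplete in the table, which held 42 of their genes.

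Of 24 listed V-ATPase genes 9 were tested, and in physioxia 2 were higher and 7 lower in Tet2-deficient cells, and in air 1 was higher and 5 lower. Atp6v0c, the proteolipid of the proton channel, was at 2956 ± 187 in Tet2-deficient and 9036 ± 312 in WT physioxia, a log2 difference of -1.61 ± 0.09. Atp6v0e, the paralog of Atp6v0e2 that serves as its counterpart in the pump, was lower as well, at 4745 ± 782 in Tet2-deficient and 7025 ± 1725 in WT physioxia (-0.55 ± 0.15). Tcirg1 (-0.43 ± 0.15), Atp6ap2 (-0.49 ± 0.10) and Atp6v0d1 (-0.42 ± 0.09), other parts of the pump, were lower in Tet2-deficient physioxia too. Atp6v0a1, a subunit of the membrane part, was higher at 1326 ± 305 in Tet2-deficient and 759 ± 252 in WT physioxia (0.85 ± 0.25), and in air, at 0.45, it did not pass the test (limma, adjusted p = 0.106). Atp6v0a4, a tissue-restricted subunit, was also higher (2.02 ± 0.72) at the low level of 14.5 ± 7.84 in Tet2-deficient and 3.32 ± 2.80 in WT physioxia. So relative to WT, Atp6v0e2 was higher in Tet2-deficient cells while Atp6v0e and Atp6v0c were lower. In air the log2 differences were -0.47 for Atp6v0e and -1.53 for Atp6v0c. Even so, Atp6v0e2 averaged only 246 in Tet2-deficient physioxia, far under the counts of Atp6v0e and Atp6v0c there, which are not scaled for length.

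Of 13 listed RNase A genes 3 were tested. Ear1 (-1.57 ± 0.22) and Ear6 (-1.03 ± 0.18) were lower in Tet2-deficient physioxia, opposite to Ear10, and Ang, which encodes angiogenin, passed the test in air, at -0.86, and missed it in physioxia, at -0.60 (limma, adjusted p = 0.107). Of 22 listed Prss proteases 4 were tested: Prss50, a testis-type protease, was higher like Prss41 (1.73 ± 0.31 in physioxia), and Prss34, Prss16 and Prss57 were lower in both oxygen conditions. Of 21 listed relatives of Ttll11, 4 were tested, and 2 were higher and 1 lower in physioxia, and 1 higher and 1 lower in air. Ttll12 was higher in both conditions (0.75 ± 0.16 in physioxia), and Ttl, which adds tyrosine to tubulin, was lower in air, at -0.52. The neuronal calcium sensor family had 2 tested relatives that went opposite ways. Kcnip2, which also binds potassium channels, was higher at 21.5 ± 12.6 in Tet2-deficient against 1.48 ± 1.02 in WT physioxia, and Hpcal1 was lower (-0.58 ± 0.11).

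For Baiap3, 7 relatives of 18 listed were tested. Unc13a, a Munc13 protein that primes vesicles (0.73 ± 0.24 in physioxia), was higher in Tet2-deficient cells, opposite to Baiap3, while Rab27a, a GTPase of granule transport (-0.82 ± 0.13), and Snap23, a SNARE protein (-0.43 ± 0.11), were lower. For Fgf3, 5 of 33 listed genes were tested and no fibroblast growth factor receptor with a kinase domain was among them. Fgf11, an intracellular family member (1.57 ± 0.27), and the feedback inhibitor Spry1 (1.21 ± 0.19) were higher in Tet2-deficient physioxia, and the inhibitor Spred1 (-0.75 ± 0.17) was lower. For Eps8l1, Eps8 itself was at 189 ± 21.6 in Tet2-deficient and 117 ± 27.0 in WT physioxia (0.71 ± 0.17), opposite to Eps8l1, and in air, at 0.34, it did not pass the test (limma, adjusted p = 0.0821). Its partner Abi1 was lower (-0.32 ± 0.09). Sos2, an exchange factor for Ras, and Rac2, a GTPase of blood cells, were lower in air, at -0.82 and -0.37, and did not pass in physioxia, at -0.27 and -0.19. All values in these 3 paragraphs with an SE passed the limma threshold of an adjusted p under 0.05.

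**Figure D5:**
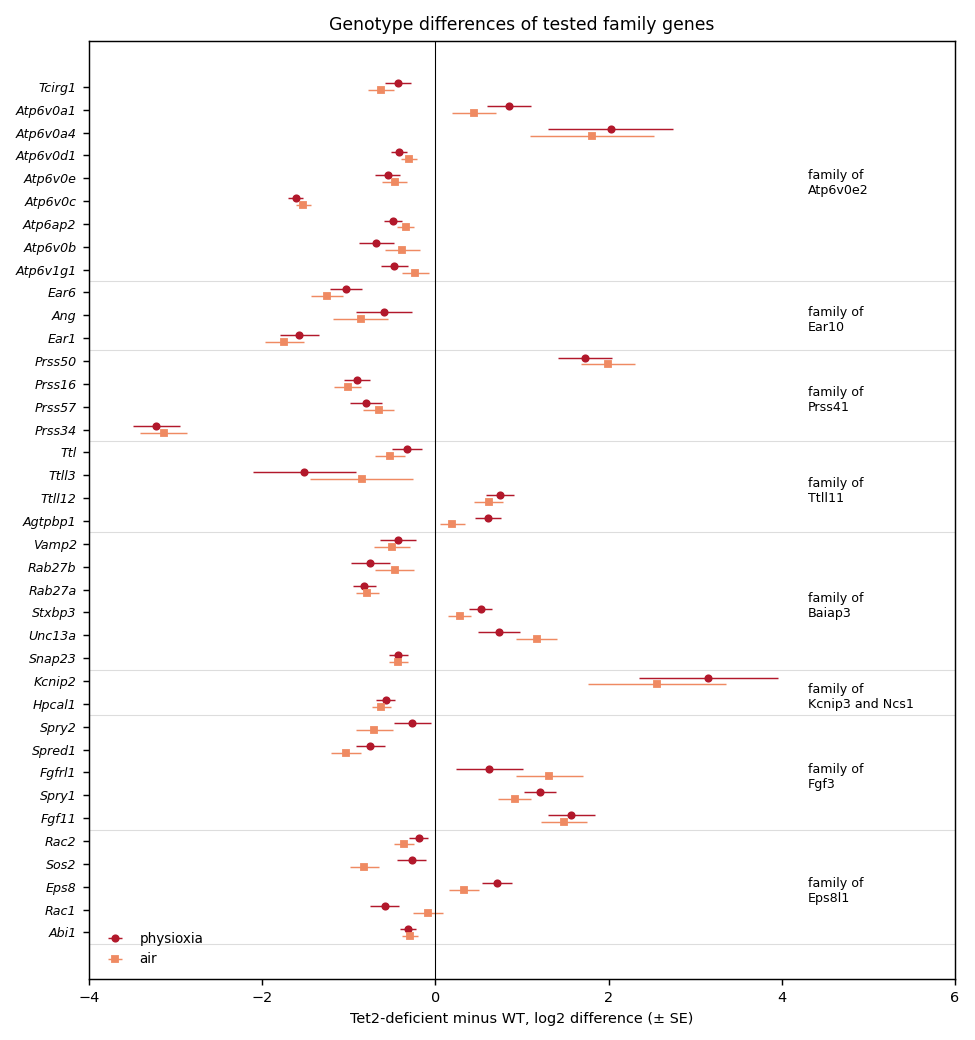
Log2 difference between genotypes, Tet2-deficient minus WT, of tested relatives of each member by list, in physioxia and in air, with bars of 1 SE. Relatives lie on both sides of 0 in most lists, and all 3 RNase A genes lie below 0.

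Closeness to a member was measured over the 16 libraries, by root mean square difference of log2 (normalized count + 1) after centring each gene. This distance uses the same values whose genotype gap chose the members, so it favours genes with a gap of similar size. The closest genes are therefore only a description. For the Tet2-deficient-high members these were Gm3272 (0.66) and Gm8615 (0.78) for Atp6v0e2, Gm9825 and Atp6v0c-ps2 (0.51 each) for Ear10, Cd248 (0.91) and Gm12312 (0.94) for Prss41, and Pcna-ps2 (0.69) and Hmga1b (0.71) for Ttll11. Of these 8, 6 are pseudogenes. Among all genes of the table with a gap over 3, noncoding ones and pseudogenes included, 18 of 47 were protein coding. How many of the rest, or of all tested genes, were pseudogenes was not counted. For the WT-high members, the closest were the immunoglobulin segments Igkv8-27 (0.84) for Baiap3 and Iglv2 (0.58) for Ncs1, the pseudogene 3110053B16Rik (0.50) for Kcnip3, Upk1b (0.84) for Fgf3 and Tnfaip6 (0.64) for Eps8l1. The second closest to Fgf3 was another member, Baiap3 (0.97). Atp6v0c-ps2, a pseudogene of Atp6v0c, averaged 1805 ± 59.2 in Tet2-deficient and 44.4 ± 8.44 in WT libraries (SD, n = 8 each), while Atp6v0c had the opposite direction.

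Markers of other blood cell types differed between genotypes as well. Of 13 erythroid markers 11 were higher in Tet2-deficient cells in physioxia and 12 in air, and of 9 measured neutrophil markers 8 were lower in each condition. Of 8 measured T and NK cell markers 6 were lower and 1 was higher in each condition. Of 8 measured basophil and mast cell markers 6 were lower in physioxia, and in air 5 were lower and 1 was higher. The 5 measured megakaryocyte markers were mixed, with 1 higher and 2 lower in physioxia, and 2 higher and 2 lower in air. Of 4 measured monocyte and macrophage markers 2 were lower in physioxia and 4 in air. The 1 measured B cell marker was lower in physioxia only, and the 1 measured stromal and endothelial marker was lower in both conditions. Over all tested genes, 35.9% were higher and 33.6% lower in physioxia, and 42.1% and 37.4% in air. Summed erythroid markers were 122718 to 329552 in Tet2-deficient physioxia and 129071 to 361218 in Tet2-deficient air, against 44195 to 80218 in WT physioxia and 36305 to 58625 in WT air. The part of this difference in the levels of the 9 genes was not tested.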

How the data were processed

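RNA sequencing of 16 libraries was used, 4 replicates per group. The deposited signal is the authors' normalized count, reads over 1 size factor per library. All values (100%) were within 0.01 of a whole multiple of 1 read, which recovered the reads. The tools STAR, HTSeq, cutadapt, FastQC and DESeq2 and the build GRCm38 are named per the submitters' processing notes, with no versions or roles. How the 6288 genes of the table were chosen is not stated; 10 had no symbol in GENCODE M21.

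The 6110 genes that reached a normalized count of 10 in 4 or more libraries were tested on log2 of the value plus 1 with limma 3.58.1 (R 4.3.3, intensity trend, all libraries in 1 fit, two-sided, Benjamini-Hochberg adjusted p under 0.05). Errors are SD over replicates and SE of the fit. Whole reads were also tested with edgeR 4.0.16 and DESeq2 1.42.0. The limma test of physioxia against air in WT cells was also run on simulated counts. Ratios of summed reads were scaled by size factors, with 95% intervals. Similar transcripts were found with blastn over at least 100 bases. The members and lists were chosen with earlier results of these data known. Genes eligible to be named were the members, the nearest table gene on each side, up to 4 relatives per list called in either oxygen condition, by p in air, the 2 most like genes per member, those between members by gap and the next 3; Gm7887, Ear-ps2, Atp6v0e, Atp6v0a1, Atp6v0a4 and Atp6v0c-ps2 beside its parent gene were singled out after their values were seen. Same-numbered WT air and physioxia libraries deviated together (correlations 0.162 to 0.332), so their numbers may pair the samples. The main fit did not use this pairing, and the fit with the replicate number as a block did. A gene that the naming rule covers is not reported here.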

Additional observations from a re-analysis of the deposited data

Results flagged for a closer look

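In each of the 36 sets of 4 replicates, the highest or lowest library was compared with the others, and 4 sets held a library whose gap to the nearest other exceeded 0.829 of the range. Chance gives about 1 in 20 sets where values are continuous, a rate that does not apply to 3 of these, in which 3 libraries were at 0 and the gap equals the range by construction: Baiap3 in Tet2-deficient physioxia replicate 4 (3.44, from 4 reads), Baiap3 in Tet2-deficient air replicate 4 (0.846, from 1 read) and Atp6v0e2 in WT air replicate 2 (2.01, from 2 reads). The fourth was Ncs1 in WT physioxia, where replicate 1 was at 427 and the others at 679 to 722.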

How the results depend on the processing

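With the replicate block, 462 genes were called for oxygen in WT and 0 in Tet2-deficient cells, and no call on a member changed; Tet2-deficient numbers did not pair (correlations -0.275 to 0.322). No member was called for oxygen under any alternative run. Over all genes, the WT oxygen count was 352, 548 by DESeq2, and 126 to 554 when 1 library was left out: 126 without WT physioxia 1, 165 without WT physioxia 2, 228 without WT physioxia 3, 554 without WT physioxia 4, 151 without WT air 2 and 127 without WT air 4. The Tet2-deficient count was 0, 1 with a pseudocount of 5 or no trend, 8 by DESeq2, and 0 to 1 with 1 library left out. The log2 oxygen difference changed sign for Prss41 (-0.0335 by quantile normalization, -0.0335 by edgeR, -0.0218 by DESeq2; -0.16 to 0.14 leaving out 1 library) and Ttll11 (-0.000544 by edgeR; -0.19 to 0.24), and, leaving out 1 library, for Ear10 (-0.00501 to 0.33), Baiap3 (-0.48 to 0.0922) and Eps8l1 (-0.28 to 0.0124); the cause was not tested. Counts for neighbours and relatives stayed within 1.5 times. The genotype ratios without 1 library, added after seeing the data, ran from 321 to 648 for Atp6v0e2 and 288 to 1452 for Baiap3, and moved by under 1.5 times for the other 7. Some of these still left their 95% counting interval. Prss41 was at 57.1 without WT physioxia 4, Kcnip3 at 27.1 without Tet2-deficient air 4, and Ncs1 at 17.0 without Tet2-deficient air 2. At 5 to 13 reads in the lower genotype, counting limits the ratios of Atp6v0e2, Ear10 and Baiap3.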
